A study of Sus scrofa with 23 samples.

Results

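The megalin-cubilin machinery takes filtered protein back from the tubular fluid in the kidney proximal tubule. It was described here through 10 genes, chosen by name from the study's table of transcripts and genes, of 26687 gene symbols in all. The 10 genes have 39 of the 77689 transcripts. Kidney cortex of 23 newborn pigs was sequenced as total RNA from which ribosomal RNA had been removed. The labels give 11 pigs as CFTR-/- (CF), 6 as CFTR+/- (HET) and 6 as Wild-type (WT), and WT and HET together are called non-CF. CFTR is the anion channel lost in cystic fibrosis. CF piglets came from matings of heterozygous pigs, so the disrupted allele is in every cell of the body, and the labels give no treatment. Each library came from a different pig, whose sex and litter are not in the labels.

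Megalin and cubilin are giant receptors on the brush border that bind filtered albumin, vitamin carriers and peptide hormones. Amnionless holds cubilin at the membrane, and a chaperone keeps megalin from binding ligands while it is being made. The loaded receptors enter clathrin-coated pits with help from an adaptor and a motor protein, release their cargo in acidified endosomes and return to the surface through recycling tubules. Loss of these receptors lets small proteins pass into the urine, and the process is prominent in the proximal tubule, where most filtered protein is recovered.

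Libraries held between 32901281 and 52952273 estimated counts. CFTR was the check of the labels, and its RNA was highest, not lowest, in libraries labelled CF. CFTR had 1.27 to 3.67 CPM (estimated counts scaled to library size) in libraries labelled WT, with a median of 2.24. It had 9.40 to 17.5 CPM, median 12.1, in those labelled HET and 12.5 to 23.5 CPM, median 20.7, in those labelled CF. The level in libraries labelled CF was higher than in those labelled WT by 3.14 on the log2 scale (adjusted p = 1.24e-10, edgeR quasi-likelihood test). The counts are summed per gene and do not show whether the RNA carries the disrupted sequence. CF pigs carry the numbers 1 to 11 and non-CF pigs 12 to 23. On an axis of the scaled expression values of all libraries, pigs 1 to 6 and 12 to 18 (13 libraries, here called earlier) lay apart from pigs 7 to 11 and 19 to 23 (10 libraries, called later), and no label names this split. Both sets hold all 3 labels. Since the sets were drawn from these expression values, differences between them are given as values with no test. The Y-linked EIF1AY was over 1 CPM in 2 of 6 WT, 5 of 6 HET and 6 of 11 CF libraries. All 20 proximal tubule markers were measured, with a summed level of 5405 to 9026 CPM in WT, 6628 to 9750 CPM in HET and 6212 to 10230 CPM in CF libraries.

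Levels between genes were compared per length, as TPM rescaled so that the mRNA transcripts of each library have a common total (mRNA TPM), because non-coding RNA took most of the deposited values. The order over 23 libraries was LRP2, LRPAP1, FCGRT, CUBN, DAB2, RAB11A, AMN, MYO6, EHD1 and OCRL. LRP2 stood at a mean of 841 ± 147 mRNA TPM (SD, n = 23), rank 155 among genes with mRNA transcripts, and OCRL at 28.7 ± 2.12 (SD, n = 23). LRP2 was above LRPAP1 in 23 of 23 libraries. CUBN at 414 ± 62.8 and DAB2 at 402 ± 73.9 mRNA TPM (SD, n = 23 each) were not ordered, since CUBN was higher in 12 of 23 libraries. EHD1 at 29.5 ± 7.22 was above OCRL in 12 of 23 libraries as well. RAB11A and LRPAP1 are annotated by coding length only (651 and 1071 bases), and their place in this order rests on those lengths.

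The spread between pigs differed among members. EHD1 varied 2.51-fold and AMN 2.43-fold between the lowest and the highest library, and FCGRT, OCRL, MYO6 and RAB11A varied 1.36- to 1.39-fold on the mRNA TPM scale. CUBN RNA exceeded AMN RNA in every library, by 2.64-fold on average, with a range of 1.59- to 3.94-fold. LRP2 RNA exceeded CUBN RNA by 2.05-fold on average, with a range of 1.46- to 2.63-fold.

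**Figure D1:**
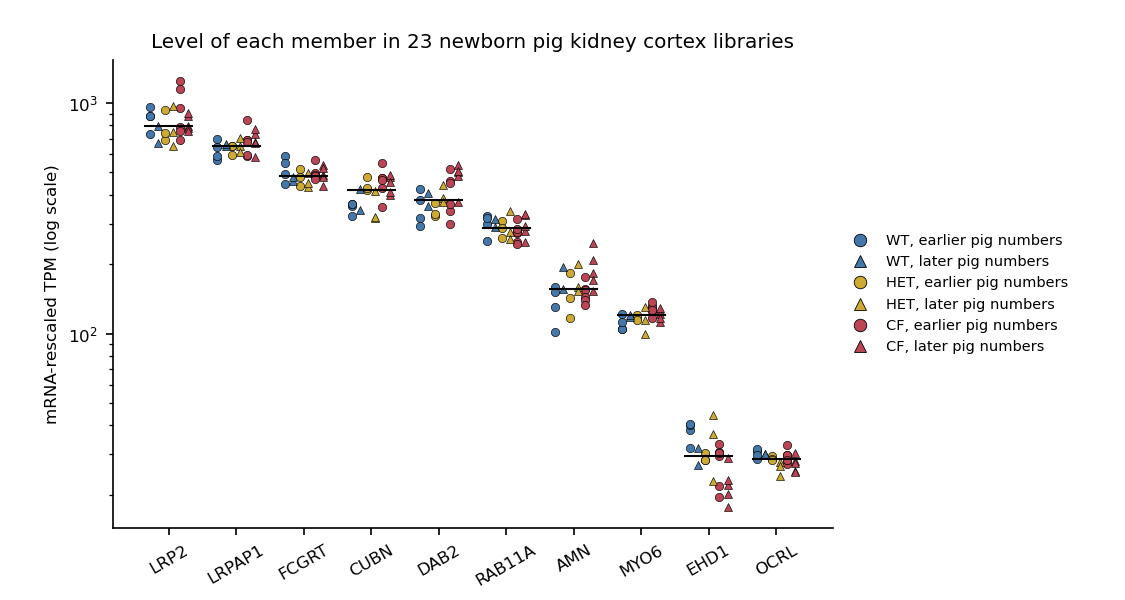
Level of each member in mRNA-rescaled TPM on a log axis in 23 libraries, coloured by label, with circles for earlier and triangles for later pig numbers. Black lines mark the medians, which run from 796 for LRP2 to 28.6 for OCRL.

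No member passed the test between labels. The count was 0 of 10 for CF against non-CF, where 0.349% of 20921 genes passed. It was 0 of 10 for CF against WT with 0.336% of genes passing, for HET against WT with 0.00467%, and for CF against HET with 0%. At an unadjusted p under 0.05 the members numbered 4, 4, 0 and 1 of 10 in these comparisons, where 13.7%, 14%, 8.0% and 9.83% of all genes did, by the same edgeR test. DESeq2 called 1 member, CUBN, for CF against WT, where it called 2.57% of all genes, and none in the others, where it called 2.24% (CF against non-CF), 0.149% (HET against WT) and 0.261% (CF against HET). The members' median log2 fold change for CF against non-CF was 0.11, beside -0.00052 over all genes tested. Member levels by label are given in CPM after TMM scaling, with the adjusted p from the edgeR quasi-likelihood test. Fewer cells of a type and less RNA per cell cannot be told apart in these bulk samples.

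LRP2 encodes megalin, the largest of the receptors, on chr15:75565299-75754604, minus strand, with 80 exons. It was at 3629 to 5632 CPM, median 4692, in WT libraries, at 3882 to 5981, median 4657, in HET libraries and at 3513 to 8205, median 4679, in CF libraries. The 3 medians nearly coincided, and the highest value came from CF pig 1. The log2 fold change for CF against non-CF was 0.13 (95% interval -0.10 to 0.36, adjusted p = 0.677), and without CF pig 1 it was 0.04. CF pig 1 had the lowest TMM factor of all libraries, 0.882. It also had the highest CPM of all libraries for CUBN, FCGRT, LRPAP1, OCRL and MYO6. On the mRNA TPM scale it was highest for LRP2 and LRPAP1, but not for CUBN, FCGRT, OCRL or MYO6.

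CUBN encodes cubilin, which binds albumin and the intrinsic factor complex, on chr10:43102931-43414692, minus strand. Its level was 1175 to 1834 CPM in WT libraries with a median of 1515, 1509 to 1954 in HET with a median of 1803, and 1482 to 2294 in CF with a median of 1894. Values overlapped between all labels, with 10 of 11 CF libraries above the WT median. The log2 fold change was 0.24 for CF against non-CF (95% interval 0.06 to 0.42, adjusted p = 0.198) and 0.36 for CF against WT (95% interval 0.14 to 0.57, adjusted p = 0.108). DESeq2 gave an adjusted p of 0.0255 for CF against WT. For HET against WT the value was 0.22 (95% interval -0.02 to 0.45) in all pigs and -0.017 in later pigs alone. Within earlier and later pigs the CF against non-CF values were 0.25 and 0.24.

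AMN encodes amnionless, the partner that anchors cubilin. It lies on an unplaced scaffold of the build, at positions 1630488 to 1639321, plus strand. It was at 56.5 to 109 CPM in WT, 62.4 to 125 in HET and 66.9 to 158 in CF libraries, with medians of 81.5, 93.4 and 87.2. The ranges overlapped widely and the log2 fold change for CF against non-CF was 0.14 (95% interval -0.14 to 0.43, adjusted p = 0.717), and without CF pig 9 it was 0.04. LRPAP1, the chaperone of megalin (chr8:2129492-2145632, minus strand), was at 169 to 242 CPM in WT, 201 to 276 in HET and 182 to 337 in CF libraries. Its log2 fold change for CF against non-CF was 0.09 (95% interval -0.10 to 0.29, adjusted p = 0.719), and it was 0.04 without CF pig 1 and 0.05 without CF pig 9. FCGRT encodes the heavy chain of the neonatal Fc receptor, which binds albumin and IgG in acid endosomes and carries them past the lysosome. It was at 243 to 295, 227 to 312 and 223 to 348 CPM in the same order, with a log2 fold change of 0.03 (95% interval -0.13 to 0.19, adjusted p = 0.915).

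DAB2 encodes the clathrin adaptor that binds the tails of megalin and cubilin's complex, on chr16:24590638-24776937, minus strand. It was at 402 to 667 CPM, median 612, in WT libraries, at 501 to 758, median 645, in HET and at 484 to 945, median 717, in CF libraries. The 3 highest CF libraries were pigs 1, 7 and 9, and 4 of 11 CF libraries lay below the non-CF median. The log2 fold change for CF against non-CF was 0.26 (95% interval 0.01 to 0.50, adjusted p = 0.333).

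MYO6 encodes myosin VI, the motor that moves along actin toward the base of the microvilli and draws endocytic vesicles inward. It was at 153 to 202 CPM, median 186, in WT libraries, at 179 to 226, median 194, in HET and at 180 to 234, median 208, in CF libraries. In all, 10 of 11 CF libraries lay above the non-CF median. The log2 fold change for CF against non-CF was 0.14 (95% interval 0.02 to 0.26, adjusted p = 0.274). It was 0.24 within earlier and 0.02 within later pigs. The test of that difference gave an unadjusted p of 0.0418 and an adjusted p of 0.465 (edgeR quasi-likelihood test of the interaction), where 0.0191% of genes passed and no member did. Since the sets were drawn from these expression values, these p-values are descriptive only.

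EHD1 encodes a membrane-scission ATPase of recycling tubules, on chr2:7299295-7321580, plus strand. It was at 33.5 to 47.5 CPM, median 39.0, in WT libraries, at 29.2 to 60.5, median 35.4, in HET and at 21.2 to 45.5, median 28.4, in CF libraries. Of the CF libraries, 10 of 11 lay below the non-CF median and CF pig 1 was the highest, while HET pigs 20 and 21 were the highest of all. The log2 fold change for CF against non-CF was -0.41 (95% interval -0.68 to -0.15, adjusted p = 0.125), and CF against WT gave -0.42 and CF against HET -0.41. Without HET pig 21, CF against HET gave -0.26. HET against WT gave -0.0039 (95% interval -0.37 to 0.36). Within earlier pigs CF against non-CF was -0.26 and within later pigs -0.62, a difference that did not pass the test (adjusted p = 0.655, edgeR quasi-likelihood test of the interaction). This p is descriptive only as well, since the sets came from these values.

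OCRL, the phosphatidylinositol 5-phosphatase of early endosomes mutated in Lowe syndrome (chrX:106124991-106188066, plus strand), was at 29.6 to 35.6 CPM in WT, 29.6 to 33.5 in HET and 28.2 to 37.6 in CF libraries. Its log2 fold change for CF against non-CF was -0.03 (95% interval -0.14 to 0.07, adjusted p = 0.838), the narrowest interval of the 10 members, and -0.06 without CF pig 1 and -0.02 without WT pig 17. RAB11A, the small GTPase of the recycling endosome (chr1:163858254-163887741, plus strand), was at 41.5 to 61.8, 48.2 to 68.5 and 41.9 to 72.5 CPM. Its value was -0.05 (95% interval -0.23 to 0.13, adjusted p = 0.852), and with any 1 library left out it lay between -0.10 and -0.03.

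**Figure D2:**
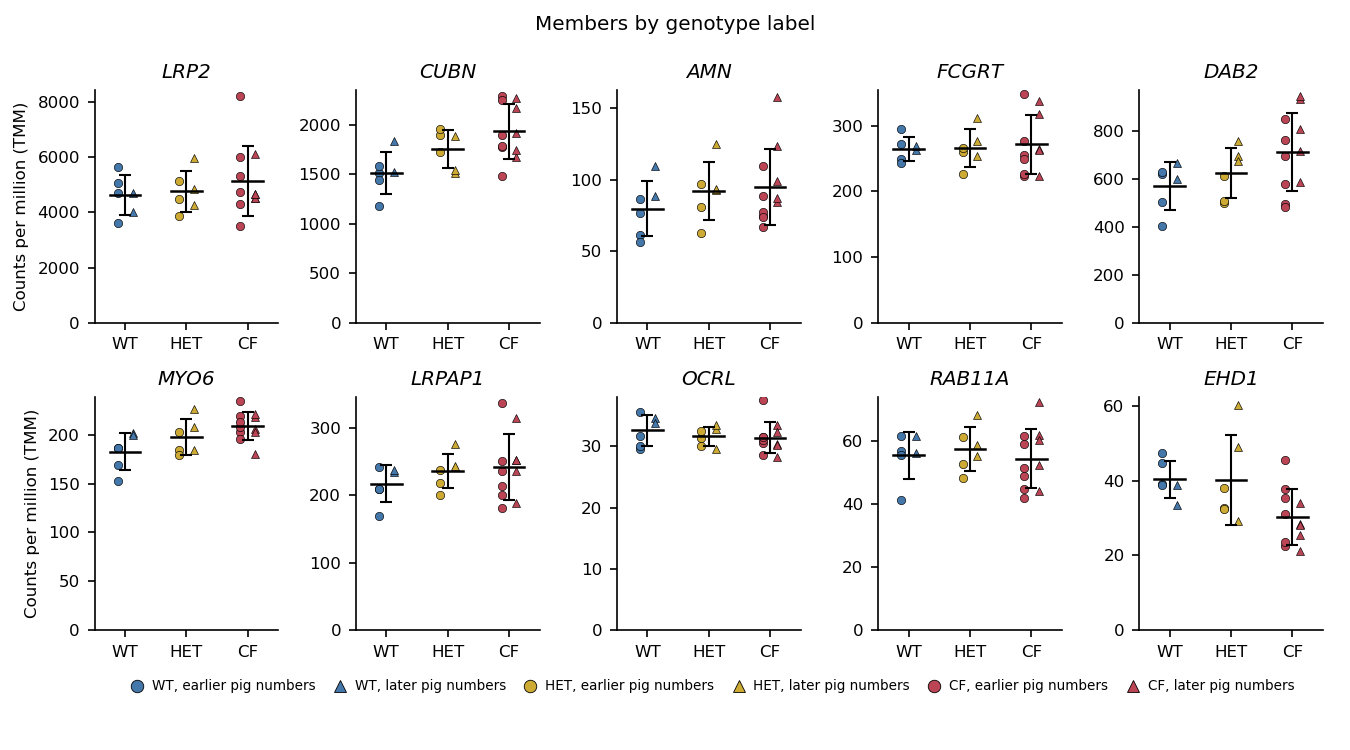
CPM of the 10 members by label in 23 libraries, with circles for earlier and triangles for later pig numbers, the mean as a horizontal line and the SD as bars (n = 6 WT, 6 HET, 11 CF). EHD1 averages 30.3 CPM in CF libraries against 40.4 in WT and 40.3 in HET, and the values of every member overlap between labels.

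**Figure D3:**
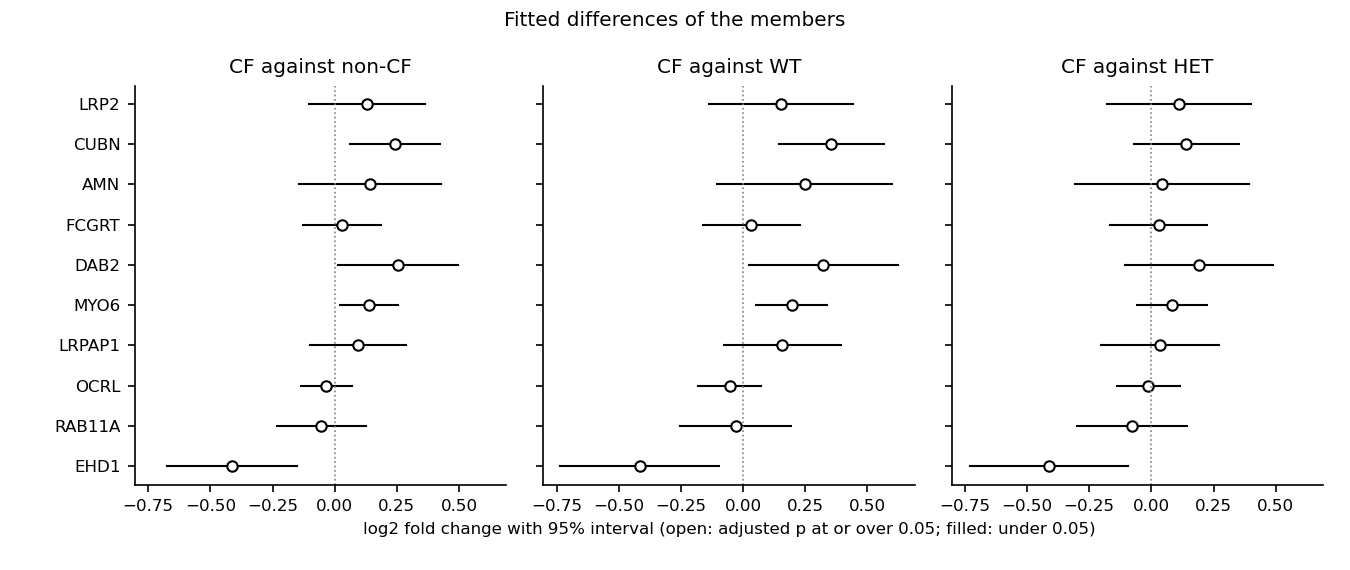
Fitted log2 fold change of each member (horizontal axis) for CF against non-CF, CF against WT and CF against HET, with lines for 95% intervals. Open points have an adjusted p at or over 0.05, and all points are open. EHD1 lies lowest in each panel, at -0.41 for CF against non-CF.

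Transcript shares were compared between CF and non-CF libraries for every gene with more than 1 transcript, and none passed after adjustment. The test covered 38977 transcripts of 11213 genes, of which 0% passed and 7.98% had an unadjusted p under 0.05 (exact permutation test, two-sided). Of 20 transcripts of 5 members tested, 4 had an unadjusted p under 0.05, namely 3 of MYO6 and 1 of AMN. Shares of transcripts of a gene add up to its total, so these are not independent of each other. The smallest p among them was for a form of MYO6, whose exons are therefore shown.

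MYO6 lies on chromosome 1 of Sscrofa11.1, chr1:89992860-90137767, minus strand, with 16 annotated transcripts. An internal exon of 81 bases, chr1:90056716-90056796, is present in 13 of them and absent from 3. The genome sequence across this exon is printed with 20 bases of the exon before it (chr1:90061233-90061397) and of the exon after it (chr1:90053260-90053440). Capitals mark the exon that is kept or skipped.
exon kept: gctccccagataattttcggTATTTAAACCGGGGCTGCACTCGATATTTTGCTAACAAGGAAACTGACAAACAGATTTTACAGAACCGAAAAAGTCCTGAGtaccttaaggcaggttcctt
exon skipped: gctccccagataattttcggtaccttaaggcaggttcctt
An exon of 9 bases (chr1:90054911-90054919), held by 4 of the 16 transcripts, lies between the exon of 81 bases and the exon after it and is not in the sequences printed. Further along the gene, other short exons held by some of the transcripts include those of 27 bases (chr1:90010847-90010873), 30 bases (chr1:90010421-90010450) and 39 bases (chr1:90007768-90007806), which are printed, and another of 27 bases (chr1:89999416-89999442), which is not. Transcripts with the printed exons of 27 and 30 bases form a class of MYO6 forms whose share is given after those of single transcripts.
MYO6 exon of 27 bases: cttggattcccatccagtaacttctaa
MYO6 exon of 30 bases: aattgatggagcaggacccaaaatgacacc
MYO6 exon of 39 bases: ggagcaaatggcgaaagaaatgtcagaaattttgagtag

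The transcript without the exon of 81 bases, XM_021082684.1, had the lowest p of the members' transcripts and did not pass after adjustment. Its share of MYO6 counts was 22.7% to 36.5% in WT libraries, median 33.7%, and 30.4% to 38.7% in HET libraries, median 34.2%. In CF libraries it was 16.99% to 28.6%, median 24.3%. All 6 HET libraries and 5 of 6 WT libraries lay above the highest CF library, and the remaining WT library lay inside the CF range. The mean was 24.0% ± 4.26 (SD, n = 11) in CF and 33.5% ± 4.18 (SD, n = 12) in non-CF libraries, a difference of -9.52 percentage points (exact permutation test, two-sided, unadjusted p = 5.18e-05, adjusted p = 0.228 over all 38977 transcripts). The other transcripts that lack the exon had almost no counts, so the class as a whole is nearly the same quantity. The form NM_214021.1, whose record differs from the genome by 14 substitutions and 2 insertions or deletions, was uneven between libraries. It held 14.6% in CF pig 10, 13.8% in CF pig 11 and 12.4% in WT pig 23, and at most 3.55% elsewhere. XM_021082684.1 was at 16.99%, 21.4% and 22.7% in these libraries. CF pig 6 had 17.1% of XM_021082684.1 and 0% of NM_214021.1. How reads were divided between these forms was not tested.

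The transcript XM_021082663.1 keeps the exon and had higher values in CF libraries. It took 13.7% ± 9.90 (SD, n = 11) of MYO6 counts in CF libraries and 2.01% ± 3.66 (SD, n = 12) in non-CF libraries (exact permutation test, unadjusted p = 0.000769, adjusted p = 0.349). It was under 1% in 8 of 12 non-CF libraries and in 1 of 11 CF libraries, and 6 CF libraries lay above the highest non-CF library. XM_021082684.1 and XM_021082663.1 also differ at their start and end exons, so the exon of 81 bases is not the only stretch that separates them. Together the 2 transcripts held 37.6% ± 9.61 (SD, n = 11) of MYO6 counts in CF and 35.5% ± 5.50 (SD, n = 12) in non-CF libraries.

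Within the earlier pigs the share of XM_021082684.1 was 23.9% ± 4.35 (SD, n = 6) in CF and 35.7% ± 2.19 (SD, n = 7) in non-CF libraries, with no overlap. Within the later pigs it was 24.0% ± 4.68 (SD, n = 5) in CF and 30.4% ± 4.50 (SD, n = 5) in non-CF libraries, and the ranges overlapped. For XM_021082663.1 the shares were 18.7% ± 8.52 (SD, n = 6) in CF and 2.54% ± 4.42 (SD, n = 7) in non-CF libraries of the earlier pigs, a difference of 16.2 points. In later pigs they were 7.61% ± 8.38 (SD, n = 5) and 1.28% ± 2.54 (SD, n = 5), a difference of 6.32 points, and the ranges overlapped in both sets. These values within sets were not tested. With any 1 library left out, the difference for XM_021082684.1 lay between -10.5 and -8.82 points. These shares are estimates that divide reads common to many similar transcripts, and reads across the junction itself were not analysed here.

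Transcripts with both printed exons of 27 and 30 bases, 5 of the 16, made up 42.7% ± 4.996 (SD, n = 23) of MYO6 counts. This class averaged 40.7% ± 5.26 (SD, n = 11) in CF and 44.5% ± 4.12 (SD, n = 12) in non-CF libraries, which was not tested over all genes. The most abundant single form in this class was XM_021082601.1, at 37.0% ± 5.29 (SD, n = 11) in CF and 37.1% ± 5.44 (SD, n = 12) in non-CF libraries.

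**Figure D4:**
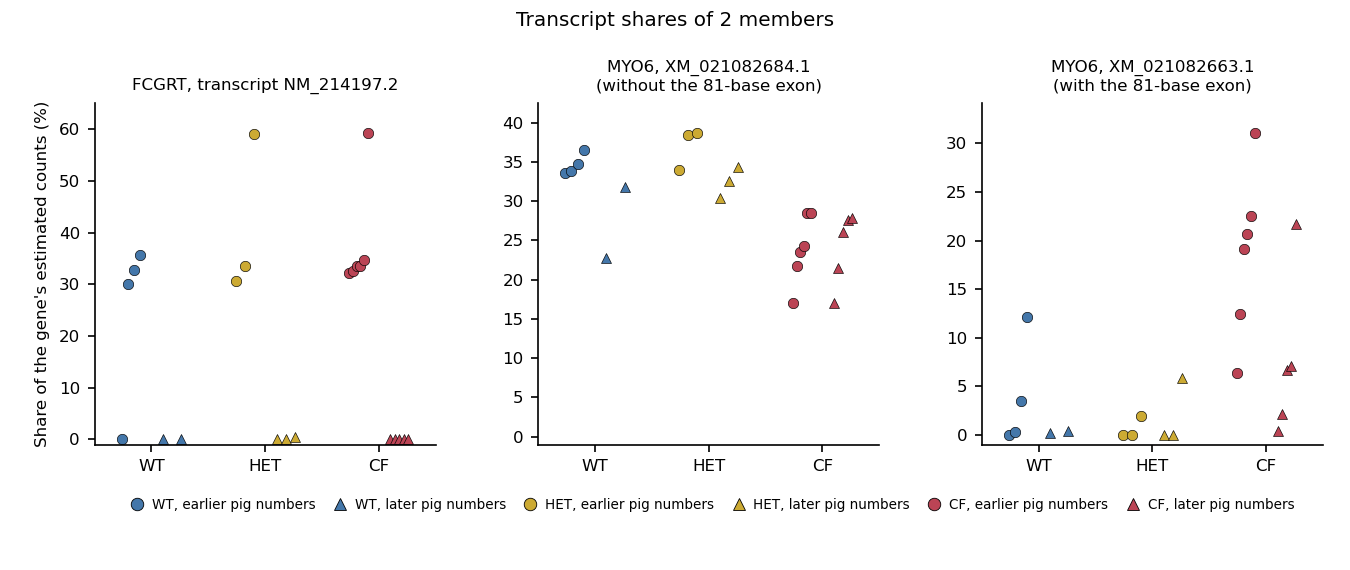
Share of each gene's estimated counts (percent) held by a transcript of FCGRT and by 2 transcripts of MYO6 in 23 libraries, by label on the horizontal axis. Circles are earlier and triangles later pig numbers, and each point is a library. All 10 later libraries sit near 0 for the FCGRT transcript, and CF libraries sit low for XM_021082684.1 and often high for XM_021082663.1.

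FCGRT lies at chr6:54581103-54599193 on the plus strand, with 7 transcripts. Its forms NM_214197.2 and XM_021093554.1 differed between the sets of pigs more than between labels. The transcript NM_214197.2, whose record differs from the genome at 3 bases, had a share of at most 0.487% in all 10 later libraries and 0.0717% in 1 earlier library, WT pig 17. It held 30.1% to 35.7% in 10 earlier libraries and 59.1% and 59.2% in HET pig 14 and CF pig 3. The shares thus fell into 3 separate ranges. XM_021093554.1, which has an additional exon of 99 bases at its start, ran opposite, with 54.1% ± 4.09 (SD, n = 10) in later and 28.5% ± 6.91 (SD, n = 13) in earlier libraries. Neither passed for CF against non-CF (exact permutation test, adjusted p = 0.987 and 0.991).

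The total of FCGRT did not follow these ranges. It was 223 to 337 CPM in the 11 libraries with almost none of NM_214197.2, 227 to 348 CPM in the 10 of the middle range, and 223 and 260 CPM in the others. The minor form XM_021081632.1 of AMN joins 2 exons of 178 and 190 bases into a single exon of 452 bases. It held 0.809% ± 0.63 (SD, n = 11) of AMN counts in CF and 2.17% ± 0.916 (SD, n = 12) in non-CF libraries (exact permutation test, unadjusted p = 0.000655, adjusted p = 0.349).

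Of the members, AMN and DAB2 had the largest differences between the sets of pigs. AMN was at 56.5 to 109 CPM, median 76.8, in earlier libraries and at 84.1 to 158 CPM, median 96.5, in later libraries. All 10 later libraries lay above the earlier median, and the ranges overlapped. The fitted log2 fold change, with the label as a term, was 0.43. DAB2 was at 402 to 851 CPM, median 578, in earlier and 588 to 945 CPM, median 708, in later libraries, a value of 0.31. The other members had values between -0.06 (EHD1) and 0.17 (RAB11A).

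The ratio of CUBN to AMN was 2.94 ± 0.544 (SD, n = 13) in earlier and 2.24 ± 0.382 (SD, n = 10) in later libraries, while CUBN itself differed by 0.02 on the log2 scale. Other measures differed between the sets as well. The mRNA share of TPM had a median of 37.48% in earlier and 42.82% in later libraries. Of 20 proximal tubule markers 18 had higher values in later libraries, and their summed level was 5405 to 8844 CPM in earlier and 7686 to 10230 CPM in later libraries. Stromal markers summed to 3106 to 6279 CPM in earlier and 2564 to 4418 CPM in later libraries, with 0 of 6 higher in later libraries. Their part in the AMN values was not tested.

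LRP2 was compared with each other member, and CUBN with AMN, in 10 relations of log2 CPM over 23 libraries. The share of all genes that relate to LRP2 or CUBN as closely was not counted. The values therefore do not set the members apart from other genes. LRP2 and CUBN gave Pearson's r = 0.57 (permutation p = 0.00418, adjusted p = 0.0139 over 10 relations) and Spearman's rho = 0.49 (permutation p = 0.0194, adjusted p = 0.0925). Without the 2 libraries farthest from the LRP2 median r was 0.55, and it was 0.57 within earlier and 0.64 within later pigs. LRP2 and DAB2 gave r = 0.62 (permutation adjusted p = 0.0081) and rho = 0.56 (adjusted p = 0.0579), with r = 0.55 without the 2 farthest libraries, 0.83 within earlier and 0.59 within later pigs.

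LRP2 and LRPAP1 gave r = 0.62 and rho = 0.40 (permutation adjusted p = 0.0081 and 0.104), and r was 0.36 without CF pigs 1 and 3, so that the relation rested in part on those libraries. Within sets it was 0.75 and 0.48. LRP2 and MYO6 gave r = 0.54 and rho = 0.46 (permutation adjusted p = 0.019 and 0.0925), r = 0.48 without the 2 farthest libraries, and 0.54 and 0.69 within sets. LRP2 and RAB11A gave r = 0.47 and rho = 0.40 (permutation adjusted p = 0.0356 and 0.104), r = 0.42 without the 2 farthest, and 0.53 and 0.56 within sets. CUBN and AMN, whose proteins form a complex, gave r = 0.49 and rho = 0.40 (permutation adjusted p = 0.0356 and 0.104), r = 0.35 without the 2 farthest libraries, and 0.54 and 0.55 within sets.

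The other relations did not pass. They were LRP2 with FCGRT (r = 0.43, rho = 0.22, permutation adjusted p = 0.0616 and 0.403), with OCRL (r = 0.34, rho = 0.08, 0.146 and 0.718), with AMN (r = 0.31, rho = 0.23, 0.166 and 0.403) and with EHD1 (r = -0.05, rho = -0.10, 0.818 and 0.718). No rank correlation passed after adjustment. Without CF pigs 1 and 3 these were r = 0.06, 0.02, 0.21 and -0.32. All libraries share a scale, and the CPM of a library moves with its other genes.

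By Pearson's r of log2 CPM over 23 libraries, the genes most like CUBN were EFNA1 (0.88), OTUD7B (0.88), LAMP2 (0.86), MARCH6 (0.86) and CDKN2AIP (0.85). Those most like LRP2 were NFIL3 (0.81), KBTBD2 (0.81), GPBP1L1 (0.79), MEX3C (0.76) and JOSD1 (0.76). None of these is a member.

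**Figure D5:**
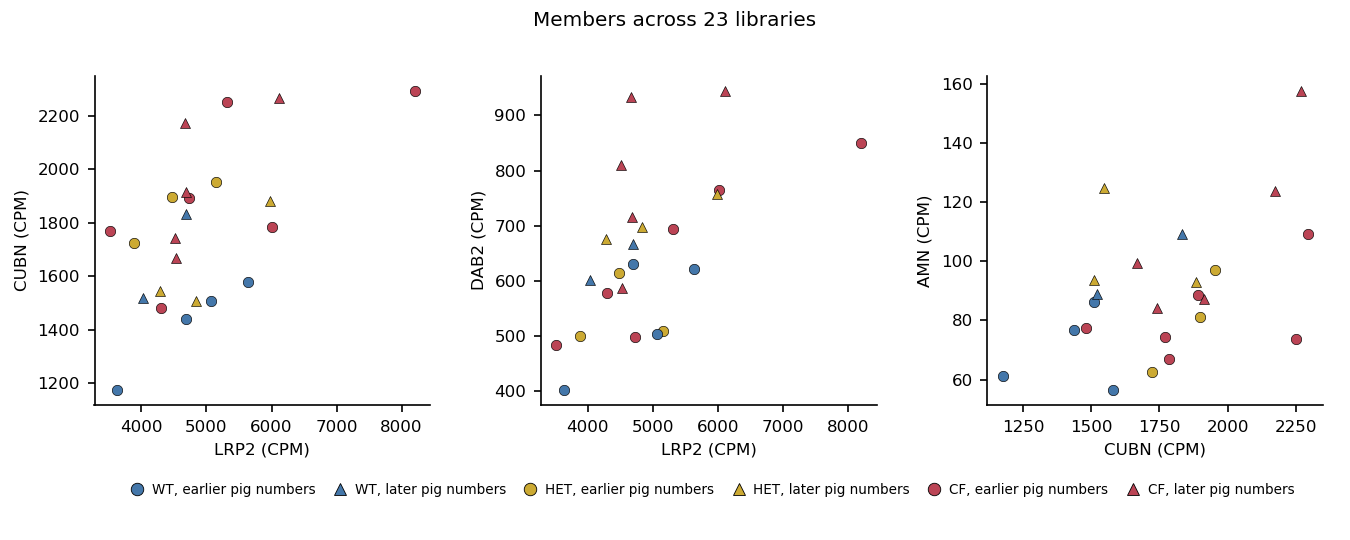
CPM of LRP2 against CUBN, LRP2 against DAB2 and CUBN against AMN in 23 libraries, coloured by label, with circles for earlier and triangles for later pig numbers. CF pig 1 lies far to the right at 8205 CPM of LRP2, and later libraries sit high for AMN at a given CUBN level.

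Other genes of the route were taken from 6 lists of 120 genes, of which 116 were tested. For CF against non-CF, 56 had higher and 60 lower values, with a median log2 fold change of -0.0051, and 1 passed the test (edgeR quasi-likelihood test), where 0.349% of all genes did. At an unadjusted p under 0.05 there were 20 of 116, where 13.7% of all genes were, and DESeq2 called 5, where it called 2.24% of all genes. For CF against WT, HET against WT and CF against HET none passed, with 16, 10 and 14 of 116 at an unadjusted p under 0.05, where 14%, 8.0% and 9.83% of all genes were. DESeq2 called 3, 1 and 1 of the listed genes, where it called 2.57%, 0.149% and 0.261% of all genes.

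Among 21 clathrin coat and adaptor genes, GULP1, an adaptor for LDL receptor-related proteins, passed with higher values in CF libraries. It was at 37.5 ± 3.22 CPM (SD, n = 11) in CF and 31.6 ± 1.94 CPM (SD, n = 12) in non-CF libraries, a log2 fold change of 0.25 (adjusted p = 0.036, edgeR quasi-likelihood test), and 13 of 23 single-library omissions took the adjusted p over the limit, up to 0.0763. It also missed the limit with upper-quartile scaling (adjusted p = 0.0818), in later pigs alone (0.073) and in earlier pigs alone (0.327, edgeR quasi-likelihood test). FCHO2, which starts clathrin pits, had a value of 0.21 (adjusted p = 0.0865). None of the 18 early endosome genes passed. Of 24 recycling and retrieval genes none passed and 6 had an unadjusted p under 0.05, where 13.7% of all genes did, with RAB11FIP2 at 0.19 and RAB11FIP3 at 0.22, both partners of RAB11A.

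None of 24 endosome acidification genes passed. The proton pump subunit gene ATP6V1B1 had a value of 0.38 (adjusted p = 0.103, edgeR quasi-likelihood test) and OSTM1, the partner of the chloride exchanger ClC-7, had 0.24 (adjusted p = 0.193). None of 13 other LDL receptor family genes passed, with LRP3 at 0.82 (adjusted p = 0.0657) and the Wnt co-receptor gene LRP6 at 0.16 (adjusted p = 0.115). None of 16 genes for filtered ligands and vitamin carriers passed. CYP27B1, which makes active vitamin D, was at 116 ± 76.3 CPM (SD, n = 11) in CF and 60.8 ± 23.3 CPM (SD, n = 12) in non-CF libraries (log2 fold change 0.93, adjusted p = 0.156), and CYP24A1, which inactivates it, had a value of -0.41 (adjusted p = 0.228).

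Between the sets of pigs, 69 of the 116 listed genes had higher values in later libraries, with a median log2 fold change of 0.06 beside -0.00091 over all genes. The median was 0.17 for acidification genes, with 19 of 24 higher, 0.06 for early endosome genes, 0.04 for clathrin genes and 0.01 for recycling genes. It was -0.06 for LDL receptor family genes and -0.18 for ligands and vitamin carriers.

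Markers of other cell types were measured beside the members. Loop of Henle and distal tubule markers summed to 1359 to 2087 CPM in CF, 1575 to 2328 CPM in WT and 1415 to 2624 CPM in HET libraries, and 8 of 9 had lower CF than non-CF values with none passing. CALB1, the calcium-binding calbindin of the distal tubule, had a log2 fold change of -1.40 (adjusted p = 0.0636), and none of the 11 CF libraries lay above its non-CF median. SLC12A3, the thiazide-sensitive cotransporter, had -0.64 (adjusted p = 0.0843, edgeR quasi-likelihood test). Of the proximal tubule markers, AQP1 passed for CF against WT, at 266 ± 76.4 CPM (SD, n = 11) and 140 ± 35.7 CPM (SD, n = 6), a log2 fold change of 0.93 (adjusted p = 0.0303), and 7 of 17 single-library omissions took it over the limit, up to 0.0927. It also missed the limit in earlier and in later pigs alone (adjusted p = 0.128 and 0.102, edgeR quasi-likelihood test). No podocyte, nephron progenitor, endothelial, stromal, immune, erythroid or collecting duct marker passed between labels. The part of these cell types in the values of CUBN and EHD1 was not tested.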

How the data were processed

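RNA-Seq was done on kidney cortex of 23 newborn pigs. Per the study's methods, the authors prepared stranded total RNA libraries after ribosomal RNA depletion and pseudoaligned the reads to Sscrofa11.1 transcripts with kallisto. The authors deposited estimated counts per transcript, without normalization, and TPM values that divide these by effective length. The members and gene lists were chosen with earlier results of these data known.

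Estimated counts were summed per symbol and rounded. edgeR 4.0.16 (R 4.3.3) fitted TMM-scaled counts after filterByExpr with its quasi-likelihood test, and p-values were adjusted by Benjamini-Hochberg over all genes tested, with 0.05 as the limit. CF against non-CF was a fit of 2 groups, and the labels were compared pairwise in a fit of all 23 libraries. Later against earlier pig numbers were fitted with the label as a term. These sets came from an earlier scaling plot of the same libraries, so the fit gives values and no test. The study's own test, a Mann-Whitney U test on CF against non-CF, and DESeq2 1.42.0 were alternatives. On simulated counts of 21434 genes for CF against non-CF, edgeR recovered 178 of 200 genes changed 2-fold and made 8 false calls of 186, and for CF against WT DESeq2 made 20 false calls of 193. The members' fitted differences were smaller than those simulated. Log2 CPM used a prior count of 2, permutation tests used 100000 resamples, and TPM on a log scale had a pseudocount of 1. Transcript shares had been planned as a description only, and their test was added after seeing the data. It took every transcript with a median share over 1% of a gene in the CF against non-CF or pairwise fit with more than 1 transcript, enumerated all 1352078 splits and was adjusted over all 38977 transcripts. An adjustment over the members' transcripts alone had been tried first and is not used. Python 3.11.15 (numpy 2.4.6, scipy 1.17.1, pandas 2.3.3) was used for the permutation tests, pysam 0.24.0 for sequences of Sscrofa11.1 and matplotlib 3.10.9 for plots.

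The text names all members, CFTR, up to 5 genes with an adjusted p under 0.05 in any comparison and the 2 with the smallest p for CF against non-CF from each list, and the 5 genes most like LRP2 and CUBN. The 9 marker lists covered tubule segments from proximal tubule to collecting duct, podocytes, nephron progenitors, and stromal, endothelial, immune and erythroid cells. Depth was 32901281 to 52952273 estimated counts, so that each member had at least 718 counts in every library. Nothing in the labels says that the pigs came from separate litters, and p-values measure the spread between these pigs.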

Additional observations from a re-analysis of the deposited data

Results flagged for a closer look

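RAB11A, the GTPase of the recycling endosome, was at 41.5 CPM in WT pig 12, against 55.5 to 61.8 CPM in the other 5 WT libraries. The gap to the nearest library was 69.3% of the range of the 6 libraries, more than the limit for a single far value. In all, 20 groups of 6 libraries were examined, and chance marks about 1 in 20. This library had the lowest mRNA share of TPM of the 23, 33.9%. On the CPM scale it was also the lowest WT library for LRP2, CUBN, DAB2, LRPAP1, OCRL and MYO6. On the mRNA TPM scale it was lowest for RAB11A (252), CUBN (322), DAB2 (292) and LRPAP1 (565), but not for LRP2 (733, against 668 in WT pig 22), OCRL or MYO6.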

How the results depend on the processing

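No member was called between labels under any alternative but CUBN for CF against WT with DESeq2 (a count of 1). Counts of all genes called for CF against non-CF (73) became 468 with DESeq2, 136 with pig number set as a term, 0 and 473 in earlier and later pigs alone, 45 with EIF1AY as a covariate and 46 with the Mann-Whitney U test, and ran from 17 to 203 with 1 library left out. For CF against WT (72) they became 550 with DESeq2, 139 with upper-quartile scaling, 199 with the set as a term and 7 in earlier pigs, and 20 to 187 with 1 library left out. For HET against WT (1) they were 32 with DESeq2 and 17 in either set alone, and 1 to 3 with 1 library left out. For CF against HET (0, with 2107 genes at an unadjusted p under 0.05) they were 56 with DESeq2, 4 with upper quartile, 1 without the filter, 5 with the set as a term, 525 in later pigs and 1 with EIF1AY, and 0 to 3 with 1 library left out. Counts for later against earlier pigs are no test, since the sets came from these values. The fit passed 2077 genes, and 1142 to 2469 with 1 library left out.

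Listed pathway genes called for CF against non-CF (1) were 5 with DESeq2, 0 with upper quartile, 0 and 3 in earlier and later pigs, and 0 to 2 with 1 library left out. For CF against WT (0) they were 3 with DESeq2, 2 with the set as a term, and 0 to 1 with 1 library left out. They were 1 for HET against WT with DESeq2 and 1 in earlier pigs, and 1 and 5 for CF against HET with DESeq2 and in later pigs. For later against earlier pigs, again no test, they were 19, and 10 to 24 with 1 library left out, and members past the threshold were 1, 2 with upper quartile and 1 to 2 with 1 library left out. Relations with an adjusted p under 0.05 by Pearson's r (6, with no share of all genes counted beside them) were 2 in earlier and 0 in later pigs.

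Signs turned in these cases. OCRL in earlier pigs was 0.013 for CF against non-CF and 0.015 for CF against HET. FCGRT for CF against WT was -0.0022 with upper quartile, -0.015 in earlier pigs and -0.015 with EIF1AY, and for HET against WT -0.024 with upper quartile, -0.0062 with the set as a term, -0.077 in earlier pigs and -0.073 with EIF1AY. LRP2 for HET against WT was -0.078 in earlier pigs and -0.039 with EIF1AY. CUBN for HET against WT, 0.22 in all pigs, was -0.017 in later pigs. EHD1 for HET against WT was 0.0046 with DESeq2, 0.0046 with median-of-ratios, 0.021 with the set as a term, 0.37 in later pigs and 0.0041 with EIF1AY. For CF against HET in later pigs LRP2 was -0.036, LRPAP1 -0.027 and MYO6 -0.0017. With upper quartile CUBN was -0.0049 and OCRL -0.015 for later against earlier pigs. LRP2 with OCRL was r = -0.11 in later pigs and with EHD1 r = 0.066 in earlier pigs. The cause was not tested.

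With 1 library left out, ranges that crossed 0 were as follows. For CF against non-CF FCGRT gave -0.010 to 0.052. For CF against WT FCGRT gave -0.0043 to 0.064 and RAB11A -0.095 to 0.0038. For HET against WT LRP2 gave -0.022 to 0.12, EHD1 -0.15 to 0.081, FCGRT -0.042 to 0.046 and RAB11A -0.017 to 0.094. For CF against HET AMN gave -0.057 to 0.15, FCGRT -0.013 to 0.080, LRPAP1 -0.024 to 0.075 and OCRL -0.042 to 0.0033. For later against earlier CUBN gave -0.024 to 0.049, LRP2 -0.095 to 0.028 and OCRL -0.0057 to 0.036. No paired analysis was possible because the labels give no litter and every pig number occurs once. The tests treat the pigs as independent, also where some may be littermates.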

Other observations

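RNA of albumin, the main filtered ligand of the receptors, was scarce and uneven. ALB averaged 0.439 ± 0.397 CPM (SD, n = 11) in CF, 0.211 ± 0.148 CPM (SD, n = 6) in WT and 2.80 ± 3.98 CPM (SD, n = 6) in HET libraries, with no call between labels (adjusted p = 0.288 for HET against WT, edgeR quasi-likelihood test). It averaged 0.217 ± 0.125 CPM (SD, n = 10) in later and 1.60 ± 2.84 CPM (SD, n = 13) in earlier pigs. CD320, the receptor for transcobalamin-bound vitamin B12, averaged 43.4 ± 5.62 CPM (SD, n = 10) in later and 31.6 ± 6.02 CPM (SD, n = 13) in earlier pigs.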
